A study of Homo sapiens with 40 samples.

Results

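The genes described here are the protein-coding zinc finger genes of human chromosome 19 whose symbols begin with ZNF, read out by RNA-seq in U2OS osteosarcoma cells. They were chosen by symbol, chromosome and level: a mean of at least 3 CPM, the unit of read counts scaled by the library total, over all 40 libraries, with ZNF296 left out by name. The rule kept 128 of the 247 protein-coding ZNF genes that the annotation places on this chromosome, out of 13837 genes of all kinds at that level and 28801 with any read. Of the others, 118 lay below the level, and 195 of the 247 had at least 1 read. Just inside the level were ZNF528 at a mean of 3.28 CPM, ZNF284 at 3.37 CPM and ZNF573 at 3.47 CPM. Just outside it were ZNF227 at 2.76 CPM, ZNF708 at 2.45 CPM and ZNF492 at 2.43 CPM.

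The cells carried a TetOn system through which doxycycline (Dox) induces MYC, and a pGIPZ short-hairpin vector. Each of the 5 hairpins was read in Dox (1 µg/ml for 24 h) and in ethanol vehicle (EtOH), with 4 libraries per group and 10 groups. Hairpins 3 and 5 target CTR9 (shCTR9), hairpins 3 and 4 target CDC73 (shCDC73), and shNTC is the non-targeting control. CTR9 and CDC73 are subunits of PAF1C, the complex that travels with elongating RNA polymerase II. Puromycin (0.2 µg/ml) selected for the vector in all groups, and every group, shNTC included, carries the TetOn system and a pGIPZ hairpin. U2OS is a single established line, and nothing in the sources used here says whether the libraries of a group came from separate cultures, so p-values measure only the spread between these libraries, which may be technical.

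Most zinc finger genes of chromosome 19 stand in clusters that arose by repeated duplication. Their proteins bind DNA through a row of C2H2 fingers, and the majority carry a KRAB domain in front of the fingers. The KRAB domain recruits TRIM28 (KAP1), which brings in the histone methyltransferase SETDB1, HP1 proteins (CBX1, CBX3 and CBX5) and deacetylase complexes to silence the bound site, often a transposable element. Among the 128 genes, 107 encoded a recognisable KRAB box and 21 did not, and the number of fingers ran from 3 to 32 with a median of 13. Their proteins were 264 to 1300 residues long, with a median of 597. Mean levels ran from 3.28 to 92.3 CPM with a median of 13.2 CPM, against a median of 30.9 CPM for all genes tested. Scaled by the length of the longest transcript, the highest were ZNF787 at 18.4 CPM per kb, ZNF317 at 18.04 CPM per kb and ZNF114 at 17.8 CPM per kb.

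The promoters of these genes are shown first because of 1 letter pattern, which the selection did not use. It was present in 47.0% of those matched, against 19.2% of the promoters of genes tested. The lines below give the DNA from 75 bases before to 25 bases after the annotated start, 5′ to 3′ on the gene's own strand, from RefSeq on GRCh38.p14. Capitals mark CCGGAAG, a core that ETS-family factors bind, or its reverse complement. The first 5 were among the genes that rose most in shCTR9 cells and hold the letters, and ZNF844 and ZNF554 rose as much and hold none in this window. ZNF667 and ZNF136 also were among the genes that rose most, hold none and are not shown.
ZNF134: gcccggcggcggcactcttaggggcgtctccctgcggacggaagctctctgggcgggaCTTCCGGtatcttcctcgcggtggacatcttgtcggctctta
ZNF461: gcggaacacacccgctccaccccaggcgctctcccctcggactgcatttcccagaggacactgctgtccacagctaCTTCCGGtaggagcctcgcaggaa
ZNF611: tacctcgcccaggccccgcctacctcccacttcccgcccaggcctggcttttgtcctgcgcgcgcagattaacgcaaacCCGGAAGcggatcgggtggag
ZNF675: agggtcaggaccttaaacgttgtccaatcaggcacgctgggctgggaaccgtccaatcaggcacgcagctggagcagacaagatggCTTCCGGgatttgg
ZNF773: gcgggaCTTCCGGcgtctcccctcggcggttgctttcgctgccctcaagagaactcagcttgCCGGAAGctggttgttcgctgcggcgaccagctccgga
ZNF844: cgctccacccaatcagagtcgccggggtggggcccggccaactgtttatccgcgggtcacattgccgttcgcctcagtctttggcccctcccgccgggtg
ZNF554: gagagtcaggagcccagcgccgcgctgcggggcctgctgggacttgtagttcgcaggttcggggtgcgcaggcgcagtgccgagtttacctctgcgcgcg

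These windows lie at chr19:57614167-57614266 on the plus strand (ZNF134), chr19:36666813-36666912 on the minus strand (ZNF461), chr19:52735020-52735119 on the minus strand (ZNF611) and chr19:23687188-23687287 on the minus strand (ZNF675). ZNF773 lies at chr19:57499863-57499962, ZNF844 at chr19:12064656-12064755 and ZNF554 at chr19:2819793-2819892, all on the plus strand. Counted from the first transcribed base as 1, the pattern began at base 2 in ZNF461, at base 5 in ZNF611 and at base 12 in ZNF675. In ZNF134 it began 17 bases before the start, and in ZNF773 it was present 69 and 13 bases before it. RefSeq promoters were matched for 117 of the 128 genes, and letters were searched on both strands of the 300 bases from 250 before to 50 after the start. CCGGAAG was in 55 of the 117 (47.0%), against 19.2% of the 8978 promoters of genes tested and 10.7% of all 27305 promoters. Within 25 bases of the start it was in 33.3% of the chromosome 19 zinc finger promoters, against 7.73% of promoters of genes tested. Genes with a KRAB box held it in 50% of promoters, genes without one in 31.6%, ZNF genes of other chromosomes in 37.2% and other genes of chromosome 19 in 18%.

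Other patterns differed from the promoters of genes tested by fewer percentage points, some lower and some higher. CACGTG, the E-box that MYC and its partner MAX bind, was in 5.13% of the chromosome 19 zinc finger promoters, against 10.1% of promoters of genes tested. GGGCGG, an SP core, was in 64.1%, against 70.9%, and the TATA box letters TATAAA were in 1.71%, against 5.59%. ACTACAA, the core of the motif that ZNF143 and THAP11 bind, was in 6.84%, against 3.83%, and AAGATGG, a YY1 core, in 11.97%, against 7.63%. The core of the NRF1 motif, without ambiguous letters, was in 0.855%, against 2.40%. A match is a description of letters and neither a site nor a cause. Of the 117 genes, 21 of 55 with CCGGAAG and 26 of 62 without it rose in shCTR9 cells in EtOH, with median log2 fold changes of 0.24 and 0.39.

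The libraries were shallow, with 877323 to 1532617 reads and a median of 1213230.5. The limit of detection, 3 counts, is 3.42 CPM in the shallowest and 1.96 CPM in the deepest library and covers counting error only. CTR9 was 16.8 to 26.6 CPM in the shCTR9 libraries, against 66.7 to 97.9 CPM in the shNTC libraries, and CDC73 was 3.23 to 13.7 CPM in the shCDC73 libraries, against 25.9 to 41.6 CPM. CTR9 was higher in shCDC73 than in shNTC cells, by 1.17 in EtOH and 0.90 in Dox on the log2 scale. MYC averaged 14917 ± 669 CPM in Dox shNTC and 503 ± 68.5 CPM in EtOH shNTC (SD, n = 4 each). In Dox, MYC was lower in shCTR9 cells (log2 fold change -0.54) and in shCDC73 cells (-0.68) than in shNTC cells. In EtOH, MYC was higher than in shNTC cells, by 0.25 in shCTR9 cells (edgeR adjusted p 0.00207) and 0.21 in shCDC73 cells (edgeR adjusted p 0.00795). The part of these differences in the knockdown comparisons was not tested. The mesenchymal and bone markers VIM (422 to 1247 CPM), SPARC (178 to 475 CPM) and COL1A1 (41.9 to 108 CPM) were read in every library. COL1A2 was at 0 in 38 of 40 libraries, THY1 in all 40, and ALPL reached no more than 2.77 CPM. Of the markers of other cell types, KRT18 reached 344 CPM, KRT8 109 CPM and EPCAM 13.6 CPM, while CDH1 and PTPRC reached no more than 4.46 and 2.22 CPM, and HBB was at 0.

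Of the 40 libraries, 3 stood apart in how read density depended on transcript length: EtOH shCDC73 hairpin 4 replicates 3 and 1 and EtOH shCTR9 hairpin 3 replicate 1. Their slopes of log2 deviation on log2 transcript length were -0.241, -0.184 and -0.228, against -0.0875 to 0.0627 in the other 37. The genes described here have longer transcripts than all genes tested (median 4242.5 against 3444.5 nt), so the EtOH knockdown counts over the 128 genes and the summed level are given with and without these libraries. Leaving them out gave 10 higher and 5 lower for Dox in shCTR9 cells, 13 and 4 for Dox in shCDC73 cells, and 17 higher and 0 lower in EtOH shCTR9 against EtOH shCDC73, comparisons whose values over all libraries follow further on. The deposited names of the libraries also pair replicates 1 and 2 (letter A) and replicates 3 and 4 (letter B) without saying what the letters mean, and results are given within each pair as well. Shares of all genes come from all 40 libraries. Such shares with libraries left out or within pairs are not given here. In bulk RNA, fewer cells of a kind and less RNA per cell cannot be told apart.

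The summed level of the 128 genes in Dox was 2689 ± 55.0 CPM with shCTR9 hairpin 3 and 2466 ± 145 CPM with hairpin 5 (SD, n = 4 each). With shCDC73 it was 2390 ± 112 CPM for hairpin 3 and 2084 ± 49.5 CPM for hairpin 4, against 1949 ± 70.3 CPM in Dox shNTC. In EtOH the sums were 2410 ± 203 and 2298 ± 83.6 CPM for the 2 shCTR9 hairpins and 2354 ± 90.5 and 1818 ± 105 CPM for shCDC73 hairpins 3 and 4, against 1729 ± 31.8 CPM in EtOH shNTC. The ratios to shNTC in EtOH were 1.39 and 1.33 for shCTR9 hairpins 3 and 5, 1.36 for shCDC73 hairpin 3 and 1.05 for shCDC73 hairpin 4. In Dox the same ratios were 1.38, 1.27, 1.23 and 1.07. In Dox and in EtOH, every library of both shCTR9 hairpins and of shCDC73 hairpin 3 lay above every shNTC library. The EtOH shCDC73 hairpin 4 libraries held 1742, 1926, 1716 and 1889 CPM in replicates 1 to 4, against 1757, 1754, 1713 and 1692 CPM in EtOH shNTC. Replicates 2 and 4 of hairpin 4 lay above every shNTC library, while replicates 1 and 3, the 2 of steep length slope, lay within the shNTC range. Without the steep-slope libraries the hairpin 4 mean was 1908 ± 26.1 CPM (SD, n = 2) and its ratio to shNTC 1.103, and the ratio of shCTR9 hairpin 3 was 1.45. All knockdown comparisons within Dox, and all within EtOH, share the same 4 shNTC libraries. Across the 10 groups, the lowest mean fell in EtOH shNTC for 39 of the 128 genes and in Dox shNTC for 27. The highest fell in Dox shCTR9 hairpin 3 for 28. The matching shares over all genes are not given here, so these counts do not set the 128 apart from other genes.

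**Figure D1:**
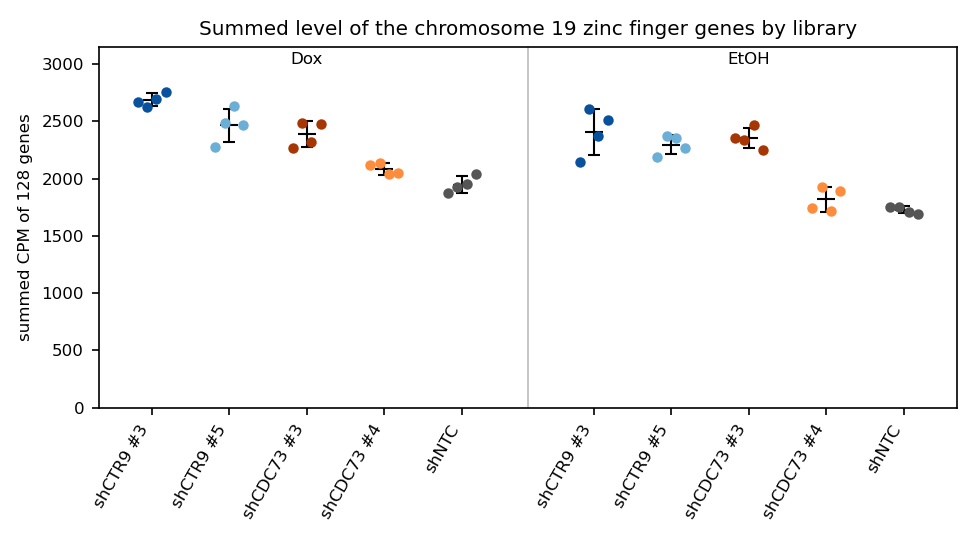
Summed CPM of the 128 chromosome 19 zinc finger genes in each of the 40 libraries, by group, with Dox to the left of EtOH and the hairpins to the left of shNTC. Points are libraries and bars the mean ± SD (n = 4): in EtOH, 2 of the 4 shCDC73 hairpin 4 libraries lie within the range of the shNTC libraries and 2 above it, while all libraries of both shCTR9 hairpins and of shCDC73 hairpin 3 lie above it.

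In EtOH, shCTR9 cells had more of many zinc finger transcripts than shNTC cells: 52 of the 128 rose and 6 fell at an adjusted p below 0.05 (edgeR quasi-likelihood test, Benjamini-Hochberg over 13837 genes). Among all genes tested, 21% rose and 21.4% fell. The median log2 fold change was 0.38 over the 128 and 0.02 over all genes. Every shCTR9 library lay above every shNTC library for 24 of the 128 and below for 0, against 10.8% and 12.1% of all genes. Of the genes with a KRAB box, 48 of 107 rose and 3 fell (median 0.48), while 4 of the 21 without one rose and 3 fell (median 0.05). Among ZNF genes of other chromosomes, 24 of 64 with a KRAB box rose and 5 fell (median 0.36), and 28 of 127 without one rose and 24 fell (median -0.04). Of 603 other genes of chromosome 19, 138 rose and 108 fell (median 0.05). Without the 3 libraries of steep slope, 57 rose and 4 fell, and without replicate 3 of every group 43 rose and 2 fell. Over single libraries or replicate numbers left out, the rises ran from 37 to 54 and the falls from 2 to 8. Within replicates 1 and 2 the counts were 22 and 2, and within replicates 3 and 4 they were 34 and 1. The level filter averages over all groups, so a gene can enter it through the knockdown libraries, and without the 3 genes that averaged under 3 CPM in shNTC the counts were 50 and 6.

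ZNF844, which encodes a KRAB box and 6 fingers, changed most of those that rose under every other fit. It had 35.0, 34.3, 39.9 and 43.9 CPM in EtOH shCTR9 hairpin 3 and 32.8, 34.7, 27.1 and 30.1 CPM in hairpin 5, against 10.01, 3.04, 9.05 and 3.32 CPM in EtOH shNTC. All 8 knockdown libraries lay above all 4 controls, and the log2 fold change was 2.41 ± 0.24 (SE, edgeR adjusted p 9.42e-12). The control values of 3.04 and 3.32 CPM are close to the limit of detection. ZNF28, a KRAB gene with 15 fingers, had 29.6, 57.7, 37.9 and 41.3 CPM in hairpin 3 and 30.5, 42.2, 43.2 and 39.6 CPM in hairpin 5, against 11.7, 14.5, 14.9 and 12.5 CPM in shNTC. The groups did not overlap, and the log2 fold change was 1.58 ± 0.20 (edgeR adjusted p 4.14e-09). ZNF134, which has 10 fingers and no KRAB box, had 27.8, 47.5, 48.9 and 39.6 CPM in hairpin 3 and 25.2, 36.9, 33.2 and 46.5 CPM in hairpin 5, against 14.2, 8.37, 14.2 and 19.9 CPM in shNTC. The lowest knockdown library was above the highest control, and the log2 fold change was 1.43 ± 0.20.

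ZNF675, known as TIZ for its inhibition of TRAF6 signalling, had 26.9, 24.8, 22.0 and 24.97 CPM in EtOH shCTR9 hairpin 3 and 37.4, 35.4, 38.2 and 31.8 CPM in hairpin 5, against 13.3, 12.9, 10.99 and 9.14 CPM in shNTC. No library overlapped, and the log2 fold change was 1.35 ± 0.20. ZNF667, named Mipu1 in rat for its induction by ischaemic preconditioning of the heart, rose by 1.34 ± 0.18, ZNF461 by 1.40 ± 0.37, ZNF554 by 1.37 ± 0.25 and ZNF136 by 1.32 ± 0.31. ZNF667 has an antisense neighbour, and the strand of the counting is not given in the sources used here, so its reads and its neighbour's cannot be told apart. ZNF773 rose by 1.35 ± 0.33, with some EtOH shNTC values close to the limit of detection. In Dox, ZNF773 did not pass the test, at -0.07 in shCTR9 and -0.59 in shCDC73 cells. ZNF611 rose by 1.35 ± 0.20 and is uncertain, because 12.3% of its 50-base stretches also occur in other genes, chiefly ZNF600. In all, 29 genes rose under every fit on whole groups and with each library or replicate left out and each hairpin alone, and 0 fell under all of these. The 6 called lower were ZNF787, ZNF507, ZNF320, ZNF100, ZNF536 and ZNF616. Of these, ZNF320 is uncertain because 99.5% of its 50-base stretches also occur in other genes, chiefly ZNF468, and ZNF536 because 17.4% do. ZNF274, known for binding the 3′ ends of zinc finger genes with SETDB1, was among the 29, at 0.61 ± 0.14 in shCTR9 cells. It is singled out for that role after its values were seen.

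With less CDC73 in EtOH, 34 of the 128 rose and 13 fell, while 22.8% of all genes rose and 22.9% fell. The median was 0.21. Of KRAB genes, 32 of 107 rose and 8 fell (median 0.31), and of the 21 others 2 rose and 5 fell (median -0.05). Among ZNF genes of other chromosomes with a KRAB box, 22 of 64 rose and 4 fell, and 183 of 603 other chromosome 19 genes rose and 100 fell. Every shCDC73 library lay above every shNTC library for 5 genes and below for 2, against 9.86% and 10.8% of all genes. Leaving out the 3 libraries of steep slope gave 34 and 12 and moved the median to 0.33. Within replicates 1 and 2 the counts were 14 and 1, and within replicates 3 and 4 they were 23 and 6. Without replicate 4 of every group, 29 rose and 2 fell. The falls also dropped to 7 without EtOH shNTC replicate 4, and to 8 without EtOH shCDC73 hairpin 4 replicate 4 or without replicate 1 of every group.

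ZNF844 had 43.6, 40.8, 50.9 and 40.3 CPM in EtOH shCDC73 hairpin 3 and 12.8, 30.5, 25.7 and 24.99 CPM in hairpin 4, against the shNTC values given above. All 8 values were above the controls, and the log2 fold change was 2.31 ± 0.25 (edgeR adjusted p 3.42e-11). ZNF266, a KRAB gene with 12 fingers, had 38.4, 38.4, 44.3 and 52.3 CPM in hairpin 3 and 18.8, 30.5, 26.7 and 27.2 CPM in hairpin 4, against 21.7, 15.98, 12.9 and 5.82 CPM in shNTC. The lowest hairpin 4 library lay within the controls, and the log2 fold change was 1.25 ± 0.19. ZNF507, which has 10 fingers and no KRAB box, was the only one to fall under every fit and with each hairpin, by 0.70 ± 0.16 on the log2 scale (edgeR adjusted p 0.000359). It had 38.4, 43.3, 42.8 and 40.3 CPM in hairpin 3 and 29.1, 59.6, 29.8 and 46.3 CPM in hairpin 4, against 65.1, 71.5, 73.7 and 60.7 CPM in shNTC. All 8 knockdown libraries were below all 4 controls.

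**Figure D2:**
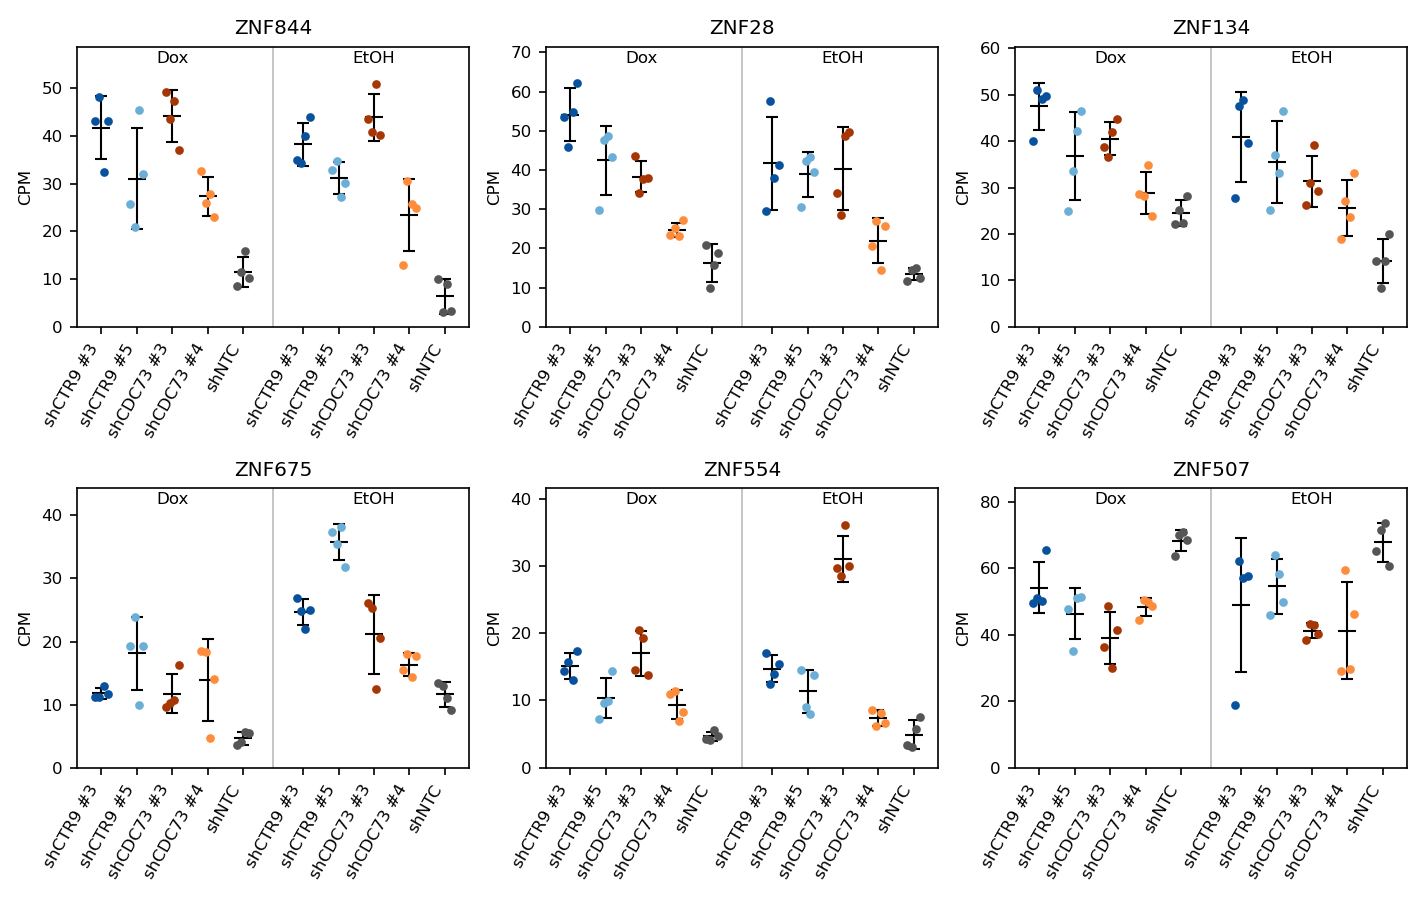
CPM of ZNF844, ZNF28, ZNF134, ZNF675, ZNF554 and ZNF507 in each library, by group, with Dox to the left of EtOH and hairpins to the left of shNTC. Points are libraries and bars the mean ± SD (n = 4): by group mean, ZNF844 and ZNF28 are lowest in the shNTC groups, ZNF507 is highest there, and ZNF554 is highest in EtOH shCDC73 hairpin 3.

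With MYC induced, 50 of the 128 rose and 5 fell in shCTR9 cells (median 0.42), while 18.8% of all genes rose and 20.0% fell. Genes with a KRAB box gave 47 up and 3 down, and those without gave 3 and 2. In shCDC73 cells in Dox, 36 rose and 9 fell (median 0.23), while 20.1% of all genes rose and 21.6% fell. Within replicates 1 and 2 the Dox counts were 28 and 1 for shCTR9 and 16 and 1 for shCDC73, and within replicates 3 and 4 they were 32 and 2 and 17 and 5. Every shCTR9 library lay above every shNTC library for 24 genes and below for 1, against 11.5% and 12.5% of all genes. For shCDC73 the numbers were 13 and 2, against 10.8% and 11.5%. Over libraries or replicate numbers left out, the rises ran from 39 to 53 for shCTR9 and from 24 to 42 for shCDC73. In these fits the falls ran from 2 (without Dox shNTC replicate 3 or 4, or replicate 4 of every group) to 5 for shCTR9. For shCDC73 the falls ran from 4 (without Dox shNTC replicate 4, or replicate 4 of every group) to 10. Beside these comparisons stands the lower MYC level of the Dox knockdown libraries given above, whose part in them was not tested.

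ZNF675 had 11.2, 11.3, 13.0 and 11.6 CPM in Dox shCTR9 hairpin 3 and 19.4, 23.8, 9.98 and 19.3 CPM in hairpin 5, against 3.58, 4.06, 5.59 and 5.50 CPM in Dox shNTC. No library overlapped, and its log2 fold change was 1.65 ± 0.29 (edgeR adjusted p 5.75e-06). In Dox shCDC73 it rose by 1.48 ± 0.30 on the log2 scale, although 1 hairpin 4 library, at 4.64 CPM, lay within the controls. ZNF844 had 43.2, 48.1, 32.5 and 43.2 CPM in Dox shCTR9 hairpin 3 and 25.8, 20.9, 45.5 and 32.1 CPM in hairpin 5, against 8.60, 11.4, 15.8 and 10.2 CPM in shNTC. Its log2 fold change in Dox was 1.65 ± 0.22 for shCTR9 and 1.61 ± 0.22 for shCDC73. ZNF28 had 53.5, 45.8, 54.7 and 62.3 CPM in Dox shCTR9 hairpin 3 and 29.8, 47.7, 48.8 and 43.4 CPM in hairpin 5, against 20.8, 9.76, 15.8 and 18.8 CPM in shNTC, with no overlap and a log2 fold change of 1.53 ± 0.19. Others that rose under every fit in Dox shCTR9 were ZNF136 at 1.55 ± 0.33, ZNF441 at 1.49 ± 0.31, ZNF554 at 1.42 ± 0.26, ZNF470 at 1.27 ± 0.25, ZNF329 at 1.23 ± 0.28 and ZNF583 at 1.20 ± 0.22.

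In Dox shCDC73, ZNF211 rose by 1.495 ± 0.303, ZNF136 by 1.47 ± 0.33, ZNF554 by 1.44 ± 0.26, ZNF461 by 1.43 ± 0.32, ZNF266 by 1.31 ± 0.20 and ZNF574 by 1.09 ± 0.16. ZNF446 rose by 1.29 ± 0.24 but is uncertain, since 59.1% of its 50-base stretches occur elsewhere, chiefly in ZNF324. ZNF507 fell by 0.64 ± 0.16 and ZNF787, which lacks a KRAB box, by 0.63 ± 0.16. ZNF787 had 41.2, 24.7, 25.8 and 31.0 CPM in hairpin 3 and 31.9, 26.0, 42.9 and 42.8 CPM in hairpin 4, against 64.5, 53.7, 42.0 and 43.2 CPM in shNTC. The highest 2 hairpin 4 libraries lay above the lowest control, so the groups overlapped.

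**Figure D3:**
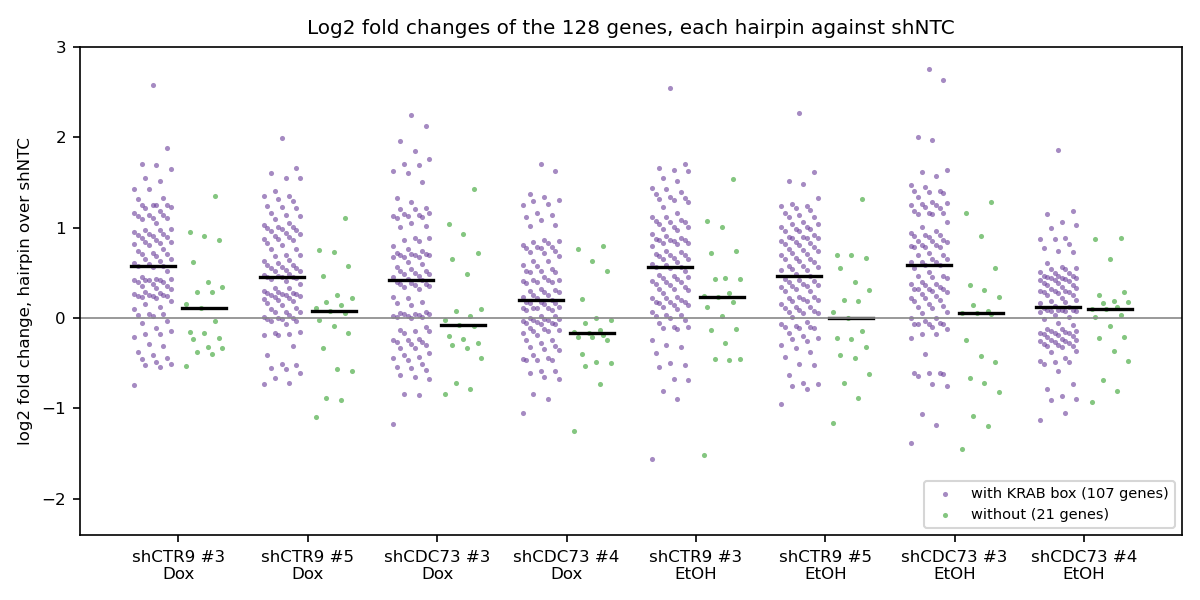
Log2 fold change against shNTC of each chromosome 19 zinc finger gene, for every hairpin in Dox and in EtOH, with the 107 KRAB genes beside the 21 genes without a KRAB box. Each point is a gene and black bars are medians, which for KRAB genes in EtOH are 0.57 and 0.46 for shCTR9 hairpins 3 and 5, 0.58 for shCDC73 hairpin 3 and 0.12 for shCDC73 hairpin 4.

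The hairpins to each target were also set apart. Against shNTC in EtOH, shCTR9 hairpin 3 gave 48 up and 5 down and hairpin 5 gave 41 and 3, where 20.3% and 15.8% of all genes rose and 20.0% and 16.1% fell. shCDC73 hairpin 3 gave 50 up and 11 down and hairpin 4 gave 15 and 7, where 24.3% and 18.3% of all genes rose and 24.0% and 16.7% fell. Without the steep-slope libraries, shCTR9 hairpin 3 gave 53 up and 3 down and shCDC73 hairpin 4 gave 13 and 3. In Dox the 4 hairpins in the same order gave 51 and 1, 35 and 4, 40 and 6, and 16 and 6. In that comparison 17.3%, 14.1%, 21.6% and 12.8% of all genes rose and 18.4%, 14.5%, 22.2% and 13.9% fell. Compared directly in EtOH, hairpin 4 was higher than hairpin 3 for 6 genes and lower for 34 (median -0.39), while 15.3% of all genes were higher and 13.1% lower with a median of 0.02. Of the 34, 32 had a KRAB box. Leaving out the steep-slope libraries, of which 2 are in the hairpin 4 group, gave 1 higher and 23 lower (median -0.27), and the slope as a covariate gave 3 and 24. Replicates 1 and 2 alone gave 0 and 2, and replicates 3 and 4 alone gave 2 and 12. Without replicate 3 of every group, 18 genes were called, and 24 when only these 2 groups were fitted. In Dox, hairpin 4 was higher for 1 gene and lower for 11 (median -0.19), while 5.34% of all genes were higher and 6.35% lower, and without replicate 2 of every group 1 gene was called. CDC73 itself averaged 8.11 ± 2.62 CPM in hairpin 4 and 7.90 ± 1.44 CPM in hairpin 3 in EtOH (SD, n = 4 each).

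ZNF554, a KRAB gene with 7 fingers, separated the CDC73 hairpins most. In EtOH it had 8.56, 6.24, 8.21 and 6.61 CPM with hairpin 4, against 29.7, 28.6, 36.2 and 30.0 CPM with hairpin 3. The ranges were far apart, the log2 fold change was -2.08 ± 0.22 (edgeR adjusted p 8.14e-10), and the shNTC libraries held 3.34, 3.04, 5.82 and 7.48 CPM. ZNF583, a KRAB gene with 12 fingers, had 6.85, 6.93, 9.23 and 5.14 CPM with hairpin 4, against 19.2, 21.2, 26.6 and 16.3 CPM with hairpin 3. These groups did not overlap either, with a log2 fold change of -1.59 ± 0.29 (edgeR adjusted p 3.59e-05). ZNF844 differed by -0.89 ± 0.20, ZNF667 by -0.78 ± 0.19 and ZNF28 by -0.84 ± 0.20, the last of these not passing without replicate 3. Of the 6 genes higher with hairpin 4, 1, ZNF404, was called without the steep-slope libraries, at 0.57 (edgeR adjusted p 0.0268).

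Between the CTR9 hairpins, 0 of the 128 genes differed in EtOH or in Dox by edgeR at an adjusted p below 0.05. At that level 0.484% and 0.173% of all genes differed. At an unadjusted p below 0.05, 8 and 17 of the 128 differed. The unadjusted shares of all genes are not given here, so these numbers do not set the 128 apart. DESeq2 called 0 as well, with an adjusted p for only 18 and 33 of the 128. The medians of hairpin 5 against hairpin 3 were -0.11 and -0.13. These counts do not show that the hairpins act alike.

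**Figure D4:**
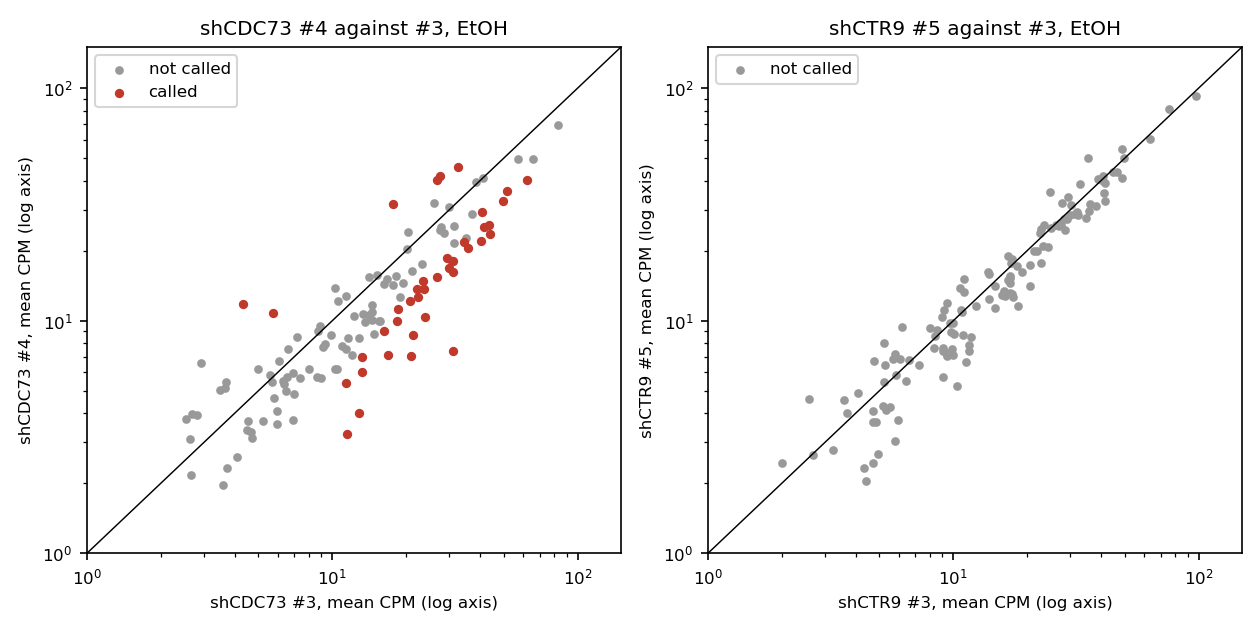
Mean CPM of each of the 128 genes in EtOH, shCDC73 hairpin 4 against hairpin 3 and shCTR9 hairpin 5 against hairpin 3, on log axes. Each point is a gene and red points differ at an adjusted p below 0.05: 40 for shCDC73, most of them lower with hairpin 4, and 0 for shCTR9.

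Set directly against shCDC73 cells, shCTR9 cells had 20 of the 128 genes higher and 0 lower in EtOH (median 0.13), while 7.0% of all genes were higher and 6.33% lower. In Dox 16 were higher and 0 lower (median 0.17), while 4.78% of all genes were higher and 4.23% lower. For 3 genes in EtOH and 2 in Dox, every shCTR9 library lay above every shCDC73 library, against 0.513% and 0.665% of all genes. Without replicate 4 of every group 8 were called in EtOH, and without replicate 3 of every group 6 in Dox. The shCDC73 side averages the 2 unlike hairpins described above. ZNF776, a KRAB gene with 9 fingers, had 15.3, 15.3, 18.97 and 17.2 CPM in EtOH shCTR9 hairpin 3 and 14.5, 15.8, 23.1 and 22.4 CPM in hairpin 5. It had 12.2, 7.35, 9.60 and 10.3 CPM in shCDC73 hairpin 3 and 8.56, 9.01, 8.21 and 8.82 CPM in hairpin 4. The shCTR9 libraries were all above the shCDC73 libraries, with a log2 fold change of 0.92 ± 0.17 (edgeR adjusted p 8.93e-05), and the shNTC libraries, at 15.9, 22.1, 12.9 and 14.96 CPM, lay with those of shCTR9. ZNF776 shares 10.4% of its 50-base stretches with other genes and is uncertain to that extent. ZNF260, with 13 fingers and no KRAB box, was higher by 0.60 ± 0.12 in EtOH and 0.52 ± 0.12 in Dox, and ZNF28 by 0.63 ± 0.14, ZNF444 by 0.57 ± 0.13 and ZNF317 by 0.56 ± 0.11 in Dox.

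Every group carries the TetOn system, so responses to MYC and to Dox itself cannot be told apart. In shNTC cells, Dox raised 9 of the 128 and lowered 2 (median 0.13), while 8.03% of all genes rose and 7.45% fell. Within replicates 1 and 2 the counts were 0 and 1, and within replicates 3 and 4 they were 2 and 0. Without replicate 2, or without replicate 3, of every group, 7 were called in all. Every Dox library lay above every EtOH library for 13 genes and below for 4, against 10.9% and 10.3% of all genes. ZNF773, a KRAB gene with 9 fingers, had 12.9, 8.13, 13.98 and 7.85 CPM in Dox shNTC, against 2.50, 4.57, 4.52 and 2.49 CPM in EtOH shNTC, with no overlap and a log2 fold change of 1.54 ± 0.36 (edgeR adjusted p 0.00164). The EtOH values of 2.50 and 2.49 CPM are close to the limit of detection. ZNF317, a KRAB gene with 13 fingers, had 92.4, 85.4, 81.1 and 87.2 CPM in Dox, against 56.7, 52.5, 51.7 and 64.0 CPM in EtOH, again without overlap, and rose by 0.63 ± 0.16. ZNF256 rose by 1.28 ± 0.30, ZNF667 by 0.85 ± 0.21 and ZNF614 by 0.75 ± 0.18.

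In shCTR9 cells, Dox raised 10 genes and lowered 5 (median 0.15), while 8.67% of all genes rose and 7.69% fell. In shCDC73 cells it raised 12 and lowered 3 (median 0.07), while 8.41% of all genes rose and 7.44% fell. With Dox, ZNF667 rose by 0.53 ± 0.11 when CTR9 was targeted and by 0.78 ± 0.12 when CDC73 was, and ZNF614 by 0.44 ± 0.11 and 0.53 ± 0.12. ZNF675 fell by 1.00 ± 0.16 in shCTR9 cells (edgeR adjusted p 3.93e-06). It also fell in shNTC cells, by 1.31 ± 0.33 (edgeR adjusted p 0.00393), a call that was lost without replicate 1 or replicate 2 of every group, and its interaction for shCTR9 was 0.31 ± 0.37 (edgeR adjusted p 0.845). ZNF404 fell by 0.77 ± 0.14 in shCTR9 and 0.63 ± 0.14 in shCDC73 cells, and ZNF114, a KRAB gene with 3 fingers, by 0.47 ± 0.12 and 0.73 ± 0.13. ZNF114 had 35.6, 44.3, 39.8 and 29.2 CPM in Dox shCDC73 hairpin 3 and 31.1, 30.5, 22.0 and 24.7 CPM in hairpin 4. In EtOH it had 58.5, 61.2, 65.0 and 44.6 CPM in hairpin 3 and 59.9, 36.7, 59.5 and 41.9 CPM in hairpin 4, so that within each hairpin every Dox library was below every EtOH library.

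Whether the Dox response differed between knockdown and shNTC cells was tested as an interaction. By edgeR at an adjusted p below 0.05, 0 of the 128 genes passed for shCTR9 and 0 for shCDC73, while 0.463% and 0.369% of all genes passed. At an unadjusted p below 0.05, 7 and 6 of the 128 passed, and the matching shares of all genes are not given here. DESeq2 called 0 of the 115 and 0 of the 127 genes to which it gave an adjusted p. ZNF773, which rose with Dox in shNTC cells, had interactions of -1.42 ± 0.42 for shCTR9 (edgeR adjusted p 0.133) and -1.65 ± 0.44 for shCDC73 (edgeR adjusted p 0.0777). These interactions, its Dox rise in shNTC cells and its rises in EtOH knockdown cells share the same EtOH shNTC libraries and are not separate findings. Without EtOH shCDC73 hairpin 4 replicate 2, or without EtOH shCTR9 hairpin 3 replicate 1, 1 gene, ZNF773, passed for shCDC73.

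The genes stand in 27 runs along the chromosome, allowing up to 2 other genes between neighbours, and 10 runs hold 5 or more of them and 100 of the 128. Beside the runs stand the shares of all genes that rose, 21% in EtOH shCTR9 and 22.8% in EtOH shCDC73 cells. In the run from ZNF845 to ZNF331, all 6 rose in EtOH shCTR9 cells and 2 of 6 in EtOH shCDC73 cells. In Dox, 6 and 3 rose. Without the steep-slope libraries, 3 of these 6 rose in EtOH shCDC73 cells. ZNF765, ZNF813 and ZNF761 of this run are uncertain, since 14.2%, 11.5% and 10.5% of their 50-base stretches also occur in other genes. Part of this sharing is with each other, so the 6 rises may not be separate. In the run from ZNF283 to ZNF180, 1 of 13 rose in EtOH shCTR9 cells and 0 in EtOH shCDC73 cells. In Dox that run had 3 up and 1 down with shCTR9 and 1 up and 1 down with shCDC73, and without the steep-slope libraries 2 of its genes rose in EtOH shCTR9 cells and 0 in EtOH shCDC73 cells. The run from ZNF264 to ZNF544, near the end of the long arm, had 9 of 17 up with shCTR9 and 7 of 17 up and 1 down with shCDC73. The run from ZNF577 to ZNF677 had 8 of 16 up and 2 down with shCTR9, and 6 up and 2 down with shCDC73. Differences between runs were not tested. Over the 10 group means, ZNF569 followed the summed level of the others most closely (Pearson r 0.96 on log2 CPM) and ZNF100 least (r -0.78), as a description over groups that share the cell line.

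**Figure D5:**
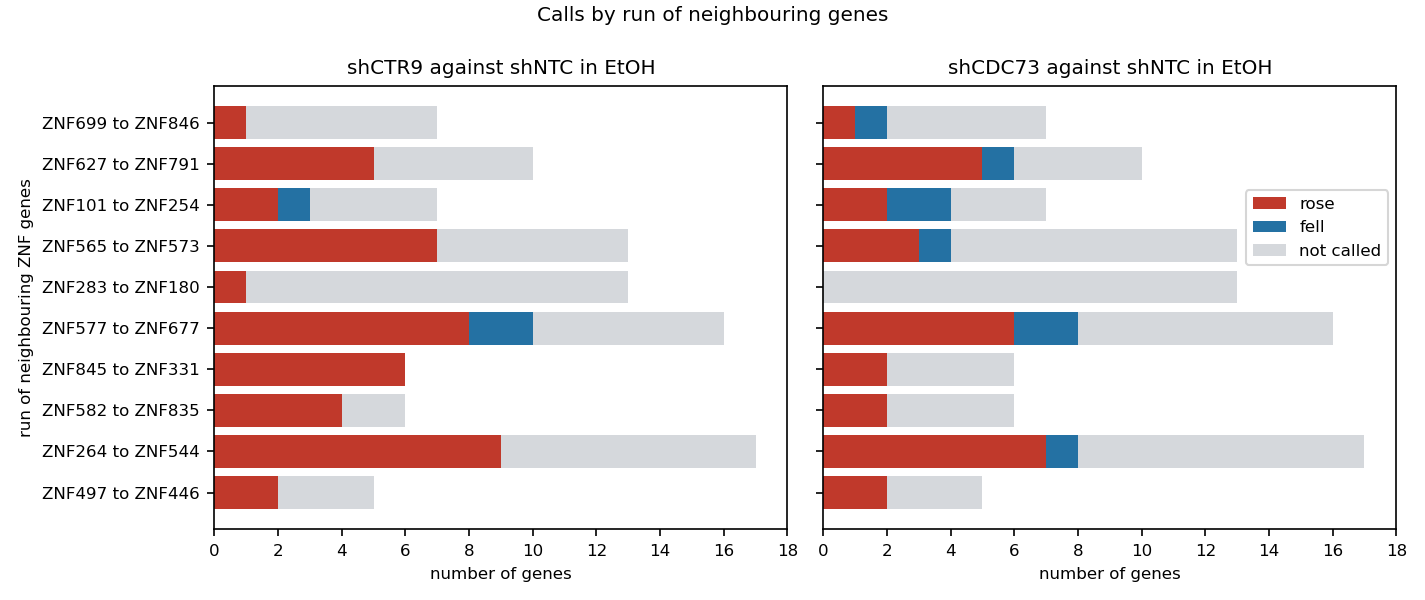
Number of genes that rose, fell or did not pass the test in each run of 5 or more chromosome 19 zinc finger genes, for shCTR9 and shCDC73 against shNTC in EtOH. The run from ZNF845 to ZNF331 has 6 of 6 up with shCTR9, some of them genes that share sequence with each other. The run from ZNF283 to ZNF180 has 1 of 13.

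Over all libraries, the partners of KRAB proteins were called at rates near those of all genes in EtOH. Of 25 listed silencing genes tested, 6 rose and 7 fell in EtOH shCTR9 cells, 5 and 6 in EtOH shCDC73 cells, 1 and 6 in Dox shCTR9 cells and 2 and 4 in Dox shCDC73 cells. Among all genes, 21% rose and 21.4% fell in EtOH shCTR9 cells, 22.8% and 22.9% in EtOH shCDC73 cells, 18.8% and 20.0% in Dox shCTR9 cells and 20.1% and 21.6% in Dox shCDC73 cells. Without the steep-slope libraries the listed genes gave, in the same order, 6 up and 7 down, 6 and 8, 2 and 8, and 5 and 8. The shares of all genes without these libraries are not given here. TRIM28, itself a gene of chromosome 19 and the direct KRAB partner, averaged 918 ± 56.9 and 787 ± 35.7 CPM in EtOH shCTR9 hairpins 3 and 5 and 896 ± 119 and 886 ± 132 CPM in EtOH shCDC73 hairpins 3 and 4, against 518 ± 32.3 CPM in EtOH shNTC (SD, n = 4 each). Its log2 fold changes were 0.71 ± 0.08 (shCTR9, edgeR adjusted p 2.71e-10) and 0.78 ± 0.08 (shCDC73) in EtOH and 0.84 ± 0.08 and 0.95 ± 0.08 in Dox. Without the steep-slope libraries the EtOH values were 0.71 ± 0.07 and 0.70 ± 0.07. SETDB1 rose in EtOH shCTR9 cells by 0.63 (edgeR adjusted p 0.000149) and did not pass the test in the other 3. CBX5, the HP1 alpha gene, fell in both knockdowns by 0.77 and 0.81 in EtOH and by 0.53 and 0.55 in Dox. HDAC1 fell by 0.44 and 0.50 in EtOH and by 0.47 and 0.71 in Dox. FAM208A, which encodes the HUSH subunit TASOR, fell by 0.81 and 0.57 in EtOH and by 0.72 and 0.53 in Dox. Of the other HUSH genes listed, MPHOSPH8 rose in EtOH by 0.62 and 0.65, and PPHLN1 by 0.28 in both knockdowns. Neither passed the test in Dox. Of the other HP1 genes, CBX1 passed in none of these comparisons. CBX3 fell in shCTR9 cells, by 0.44 in EtOH and 0.50 in Dox, and did not pass in shCDC73 cells.

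ZNF296, the chromosome 19 zinc finger gene left out by name, averaged 15.3 CPM. Its log2 fold changes were 1.47 in EtOH shCTR9, 2.00 in EtOH shCDC73, 1.13 in Dox shCTR9, 1.39 in Dox shCDC73 and 1.44 for Dox in shNTC cells.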

How the data were processed

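Total RNA of 40 U2OS libraries was sequenced after an NEB library protocol, per the labels' protocols. The authors deposited 1 table of raw gene read counts per library, and hg19, Bowtie, HISAT2 and edgeR stand in the submitters' processing notes without versions. What each tool did, and the counting program with its strand setting and annotation, were not given in the sources used here. Counting by gene can split reads between near-identical genes, so shared 50-base stretches were counted in the transcripts of GENCODE release 29, which also gave symbol, gene type, chromosome and length (51989 of 63152 Ensembl genes matched, with 98.74% of reads).

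Depth was 877323 to 1532617 reads per library. All 40 libraries entered 1 edgeR 4.0.16 fit (R 4.3.3, limma 3.58.1, robust quasi-likelihood, TMM factors 0.920 to 1.03) with a mean for each of the 10 groups, on the 13837 genes with a mean CPM of at least 3. Tests were two-sided and called at a Benjamini-Hochberg adjusted p below 0.05 over all genes tested. Printed CPM values of libraries and groups are TMM-scaled. The selection, the mean levels described with it, the values per kb and the limit of detection used plain CPM. A fold change of a low gene rests on few reads. The fit was tested on simulated counts. Contrasts of a target average its hairpins. An SE is the log2 fold change over the square root of its F. The KRAB box and C2H2 fingers were found by letter patterns in translated GENCODE coding sequences, and promoters came from RefSeq on GRCh38.p14.

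Genes were named for each comparison by a rule: the 10 largest changes each way (5 between targets and for differences of response) among genes called in the same direction under every other scaling and filter, DESeq2 1.42.0, the replicate block, each replicate and each library left out, without the 3 libraries of steep slope and, against shNTC, with each hairpin alone. Fits within the lettered pairs of replicates and with the length slope as covariate were chosen after seeing the data and are not part of that rule. The genes and lists were chosen with earlier results of these data known. Replicates of a group differed by more than sampling noise (chi-square per degree of freedom 1.06 to 9.14), so none were merged.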

Additional observations from a re-analysis of the deposited data

Results flagged for a closer look

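In groups of 4 libraries, a single library was far from the other 3 in 5 of 150 gene and group pairs examined, and chance gives about 1 in 20. ZNF675 was 16.3 CPM in Dox shCDC73 hairpin 3 replicate 4, against 9.70 to 10.8 CPM in the other 3. ZNF507 was 65.6 CPM in Dox shCTR9 hairpin 3 replicate 4, against 49.6 to 51.1 CPM. It was 18.8 CPM in EtOH shCTR9 hairpin 3 replicate 1, one of the libraries of steep length slope, against 56.9 to 62.1 CPM. ZNF667 was 34.8 CPM in Dox shCDC73 hairpin 3 replicate 1, against 52.5 to 54.8 CPM, and ZNF114 was 40.2 CPM in Dox shCTR9 hairpin 5 replicate 4, against 51.6 to 53.2 CPM.

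Direct tests between hairpins or targets found differences in size. By edgeR at an adjusted p below 0.05, the effects of CDC73 hairpins 4 and 3 differed for 40 of the 128 genes in EtOH, 6 higher and 34 lower with hairpin 4, while 15.3% of all genes were higher and 13.1% lower. They differed for 12 in Dox, 1 higher and 11 lower, while 5.34% of all genes were higher and 6.35% lower, so the Dox total lies near the share of all genes. The effects of shCTR9 and shCDC73 differed for 20 genes in EtOH and for 16 in Dox, all higher in shCTR9 cells, while 7.0% and 4.78% of all genes were higher.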

How the results depend on the processing

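By the naming rule, no named change could reverse under the fits that the rule uses. Within the lettered pairs of replicates and with the slope covariate, which are outside the rule, none reversed. Counts of called genes stayed within 1.5 times under every scaling, filter and DESeq2. The replicate numbers were not treated as pairing the libraries, since only 92 of 180 same-number pairs correlated above 0.1. The median correlation was 0.10 for the same number and -0.02 for different numbers, and 27 of 40 libraries correlated best with their own number, a hint from the data and not the design. With the replicate block the counts were 13 for Dox in shNTC, 60 and 54 for shCTR9 in EtOH and Dox, 50 and 47 for shCDC73, and 22 and 17 between targets. Within replicates 1 and 2 and within replicates 3 and 4, counts were 1 and 2 for Dox in shNTC, 2 and 7 in shCTR9 and 2 and 8 in shCDC73. They were 24 and 35 (shCTR9) and 15 and 29 (shCDC73) in EtOH, 29 and 34 and 17 and 22 in Dox, 0 and 6 (EtOH) and 0 and 3 (Dox) between targets, and 4 and 14 summed over the 4 comparisons between hairpins (CTR9 and CDC73, EtOH and Dox). Fitting only the groups compared gave 13 between targets in EtOH and 24 between CDC73 hairpins in EtOH. The slope covariate gave 1 shCDC73 interaction. Of the 72 named changes, 34 did not pass within replicates 1 and 2 and 19 within replicates 3 and 4.

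Leaving out single libraries or replicate numbers gave 7 to 13 calls for Dox in shNTC (7 without replicate 2 or 3), 10 to 18 in shCTR9 and 11 to 16 in shCDC73. For shCTR9 the range was 43 to 60 in EtOH and 43 to 58 in Dox, and for shCDC73 31 to 49 (31 without replicate 4) and 31 to 51. The interactions gave 0 to 0 and 0 to 1. Between targets the range was 8 to 25 in EtOH (12, 12 and 8 without replicates 2, 3 and 4) and 6 to 18 in Dox (7, 6 and 7 without replicates 1, 3 and 4), and summed over the 4 hairpin comparisons 24 to 56, with 18 to 44 for the CDC73 hairpins in EtOH, 1 to 12 in Dox and 0 for the CTR9 hairpins. CDC73 hairpins in Dox gave as few as 1 call without replicate 2, and 5 to 7 without single hairpin libraries or replicates 3 or 4. The causes were not tested. At these depths, genes near 3 CPM rest on a few reads, and their changes are poorly measured.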
